A study of Mus musculus with 4 samples.

Results

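The genes of de novo lipogenesis were compared in quadriceps muscle of WT and Mef2dα2 Eko mice. The 10 genes were Acly, Me1, Acaca, Acacb, Fasn, Elovl6, Scd1, Dgat2, Srebf1 and Thrsp, taken by gene symbol from the 51826 rows of the deposited gene table. All 10 passed the filter on low counts and were among the 16120 genes tested. Mef2d encodes a transcription factor of the MEF2 family that, in adult muscle, is spliced mainly to include the muscle-specific α2 exon. In Mef2dα2 Eko mice this exon was removed with CRISPR-Cas9 on both alleles and in every cell of the body, not by a Cre driven in muscle, and the alternative exon α1 was used in its place. WT mice were wild type at Mef2d and came, like the Mef2dα2 Eko mice, from crosses of heterozygous parents. All 4 mice were sedentary male C57BL6/J mice at about 20 weeks of age on a chow diet, 2 of each genotype and described by the study as littermates, with 1 polyA-selected RNA library per mouse. The founder line of each mouse, and which of the mice shared a litter, are not given in the sources used here. The mice are called WT 1, WT 2, Eko 1 and Eko 2 after their replicate numbers.

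De novo lipogenesis builds fatty acids from carbohydrate carbon. Citrate that leaves the mitochondrion is cleaved to acetyl-CoA, acetyl-CoA is carboxylated to malonyl-CoA, and fatty acid synthase joins these units into palmitate with NADPH as the reductant. Palmitate is then lengthened, desaturated and joined to glycerol as triglyceride. The pathway is most active in liver and adipose tissue. In muscle fibres, malonyl-CoA is best known as the brake on the entry of fatty acids into mitochondria.

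Total expected counts per library lay between 72626757 and 85176059, and the smallest level taken as detected, 3 counts, was 0.0348 to 0.0419 CPM (counts scaled to the size of the library), which covers counting error only. No pair of libraries agreed within sampling noise, so each was kept as 1 mouse. Each replicate was a separate mouse, and p-values reflect the spread between these 4 mice only. The fit draws the spread of each gene toward that of other genes, so p-values and intervals rest partly on values borrowed over genes. The edited gene itself had 19687, 18393, 21695 and 17206 counts in WT 1, WT 2, Eko 1 and Eko 2. Its log2 fold change was 0.02 (SE 0.08, adjusted p = 0.960), and because the table counts whole genes and not exons, the gene gives no check of the genotype labels.

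Promoter sequence was available for 8 of the 10 genes, in 11 windows from 250 bases before to 50 bases after the start site (RefSeq, GRCm38.p6). Scd1 and Dgat2 had no entry. The Fasn promoter is shown because Fasn had the second-largest fold difference of the 10 and is a classic target of the lipogenic factors SREBP-1c and NF-Y. It runs from 250 bases before to 30 bases after the start site, on the minus strand of chr11:120824518-120824797, and capitals mark CCAAT or its reverse complement ATTGG, the core letters of the NF-Y motif. The stretch from the Thrsp start site is shown because it held the only match of the 11 windows to a loose form of the MEF2 motif. That form, CTANNNNTAG, leaves the middle letters free. The stretch lies on the minus strand of chr7:97417534-97417563, and capitals mark the match.
Fasn: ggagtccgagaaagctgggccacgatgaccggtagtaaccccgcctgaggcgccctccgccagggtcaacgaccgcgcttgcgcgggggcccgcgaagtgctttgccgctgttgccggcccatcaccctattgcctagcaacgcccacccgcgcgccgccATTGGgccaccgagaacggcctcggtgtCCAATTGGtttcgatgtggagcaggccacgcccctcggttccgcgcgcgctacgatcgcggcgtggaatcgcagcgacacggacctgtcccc
Thrsp: gctcaaaagcCTAGAAATAGcgctggggca

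Motifs were searched on both strands. In the Fasn window ATTGG began at -90, CCAAT at -62 and a second ATTGG at -59, counted from the start site. The last pair joined as CCAATTGG, which also held the E-box CAATTG at -61, so these matches overlap. CCAAT was found in 7 of the 11 windows, from Acacb, Acly, Fasn, Me1, Srebf1 and Thrsp, and in 37.4% of 32851 mouse promoters of the same length. The E-box CANNTG was found in 8 of the 11 windows and in 72.3% of all promoters. CTANNNNTAG was in 3.69% of all promoters, and among the 8 genes the Thrsp window alone held it, as CTAGAAATAG at -3. The middle letters of this match, GAAA, include a G and so are not all A or T. The study describes the sequence bound by MEF2 proteins as A/T-rich. The sterol regulatory element TCACNCCAC was in 1.24% of all promoters and in 0 of the 11 windows. These matches describe letters in short windows and do not show binding.

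None of the 10 genes passed the test between genotypes. In edgeR's quasi-likelihood fit, 0 of 10 had an adjusted p below 0.05, where 0.416% of all genes tested did, and 1 of 10, Dgat2, had an unadjusted p below 0.05, where 11.6% of all genes did. DESeq2 called 1 of the 10, also Dgat2, against 1.97% of all genes. Without Eko 1 the quasi-likelihood fit called 1 of the 10, Scd1, and 0.186% of all genes. The log2 fold change was below 0 for 9 of the 10, with a median of -0.23 compared to -0.01 over all genes tested. For 6 genes both Mef2dα2 Eko mice lay below both WT mice, for 0 genes both lay above, and for 4 the genotypes overlapped. Over all genes tested 43.8% did not overlap, 23% with both Mef2dα2 Eko mice lower and 20.8% with both higher. Summed over the 10 genes, the level was 961 and 923 CPM in the WT mice and 852 and 827 CPM in the Mef2dα2 Eko mice. The means were 942 ± 26.6 and 839 ± 17.5 CPM (SD, n = 2), a difference of -103 CPM. Without Scd1 the sums were 823 and 824 CPM in the WT mice and 756 and 785 CPM in the Mef2dα2 Eko mice, a difference of -52.9 CPM, so this gene alone made up a large share of it. Because the RNA came from whole muscle, fewer cells of a type and less RNA per cell cannot be told apart in any of these values.

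**Figure D1:**
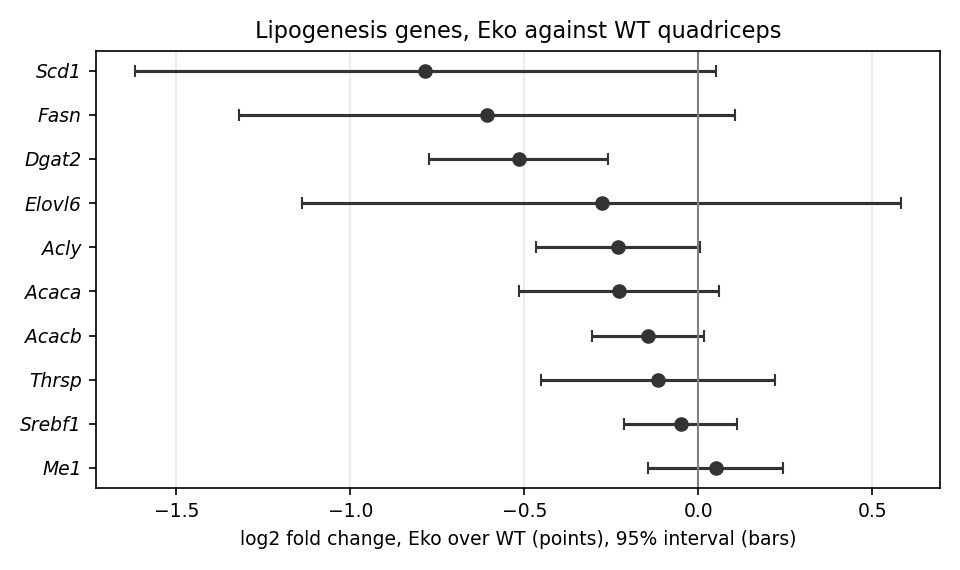
Log2 fold change of each lipogenesis gene in Mef2dα2 Eko compared to WT quadriceps (horizontal axis, points) with its 95% interval (bars), genes ordered by fold change. The interval of Dgat2, from -0.77 to -0.26, lies wholly below 0, and those of Scd1, Fasn and Elovl6 are the widest.

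Levels were compared between genes per kilobase of exon, with lengths from GENCODE M21. Me1 had the highest level, at 77.6 CPM per kb as the mean of the WT mice, followed by Acacb at 37.0 and Scd1 at 24.2 CPM per kb. Srebf1 and Dgat2 came next with 10.8 CPM per kb each, and their WT values did not separate. Thrsp had 5.09, Fasn 3.21, Acly 1.72, Acaca 1.07 and Elovl6 0.126 CPM per kb. In WT mice the neighbours in this order did not overlap apart from Srebf1 and Dgat2. Fasn and Acaca thus stood at ranks 7 and 9 of the 10 in this muscle, with Acly between them, while Acacb stood at rank 2. Me1 had between 575 and 1130 times the level of Elovl6 per kb in the 4 mice.

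**Figure D2:**
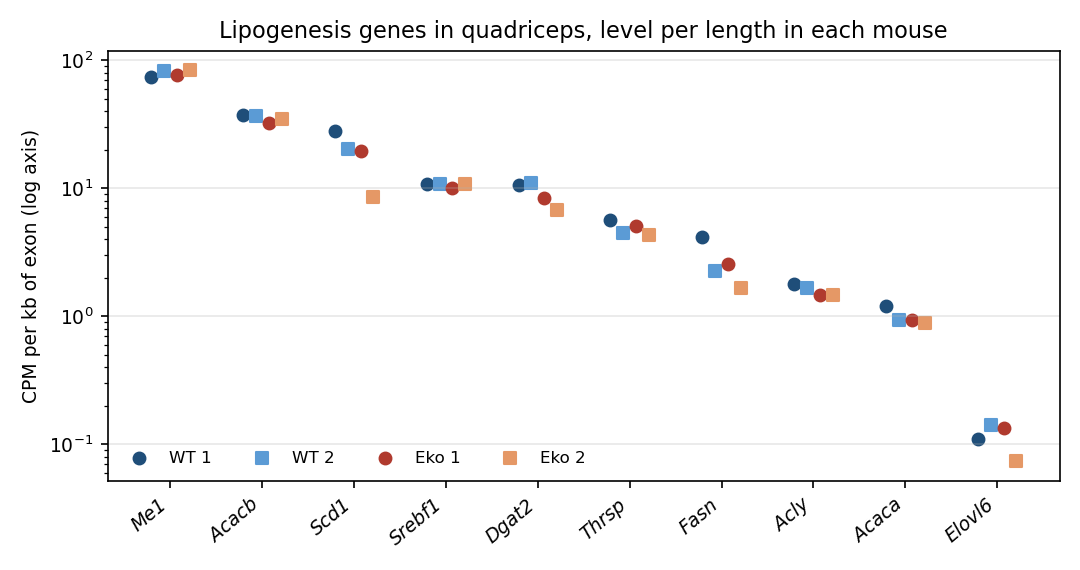
Level of each lipogenesis gene in CPM per kb of exon (vertical log axis) in each mouse (1 point per mouse), genes ordered by the WT mean. The 10 genes span from Elovl6, at 0.0739 to 0.142 CPM per kb, to Me1, at 73.5 to 83.5 CPM per kb, and the mice spread most for Scd1, where Eko 2 lies far below the others.

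Acly and Me1 supply the pathway. Acly, ATP citrate lyase (chr11:100476353-100528000, minus strand), makes cytosolic acetyl-CoA from citrate, and had 9.45 and 8.75 CPM in WT 1 and WT 2 and 7.77 and 7.73 CPM in Eko 1 and Eko 2. Both Mef2dα2 Eko mice were lower than both WT mice and were nearly equal to each other. The log2 fold change was -0.23 (SE 0.10, adjusted p = 0.439). Me1, the cytosolic malic enzyme that yields NADPH (chr9:86581371-86695953, minus strand), had 283 and 315 CPM in the WT mice and 297 and 321 CPM in the Mef2dα2 Eko mice. The genotypes overlapped, and Me1 was the only gene of the 10 with a fold change above 0, at a log2 value of 0.05 (SE 0.08, 95% interval -0.14 to 0.24, adjusted p = 0.861). Leaving out WT 1 or Eko 2 turned its sign, to -0.025 and -0.0089.

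Acaca and Acacb encode the cytosolic acetyl-CoA carboxylase of fatty acid synthesis and the mitochondria-associated form that is abundant in muscle. Acaca (chr11:84129672-84401651, plus strand) had 20.4 and 16.1 CPM in WT 1 and WT 2 and 16.0 and 15.1 CPM in Eko 1 and Eko 2. WT 1 stood above the other mice, and WT 2 and Eko 1 differed by less than 0.1 CPM. The log2 fold change of Acaca was -0.23 (SE 0.12, adjusted p = 0.526), and without WT 1 it was -0.05. Acacb (chr5:114146535-114250761, plus strand) had 358 and 355 CPM in the WT mice and 313 and 332 CPM in the Mef2dα2 Eko mice. Both Mef2dα2 Eko mice lay below a narrow pair of WT values, with a log2 fold change of -0.14 (SE 0.07, 95% interval -0.31 to 0.02, adjusted p = 0.477). Per kb of exon, Acacb was 31.1 to 39.1 times as abundant as Acaca in the 4 mice, and the ranges of the genotypes overlapped.

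Fasn, fatty acid synthase (chr11:120805846-120824547, minus strand), had 45.6 and 24.6 CPM in WT 1 and WT 2 and 27.9 and 18.1 CPM in Eko 1 and Eko 2. WT 1 was highest and Eko 2 lowest, and WT 2 lay below Eko 1, so the genotypes overlapped. The WT mean was 35.1 ± 14.9 CPM and the Mef2dα2 Eko mean 23.0 ± 6.92 CPM (SD, n = 2). Its log2 fold change was -0.61 (SE 0.30, 95% interval -1.32 to 0.11, adjusted p = 0.498). Without WT 1 the log2 fold change was -0.09, and without Eko 2 it was -0.33.

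Elovl6 and Scd1 modify the palmitate that Fasn makes. Elovl6, the elongase that extends it to stearate (chr3:129532355-129638495, plus strand), was scarce, with 54, 74, 74 and 34 counts, or 0.712, 0.915, 0.858 and 0.475 CPM in WT 1, WT 2, Eko 1 and Eko 2. The genotypes overlapped, and at this depth the interval of its log2 fold change ran from -1.14 to 0.58 around -0.28 (adjusted p = 0.816). Scd1, the desaturase that makes oleate from stearate (chr19:44394455-44407879, minus strand), had 138 and 99.3 CPM in the WT mice and 96.0 and 41.5 CPM in the Mef2dα2 Eko mice. Both Mef2dα2 Eko mice were lower, but Eko 1 lay within 4 CPM of WT 2 and Eko 2 was at 0.432 times the level of Eko 1. Scd1 spread more over the 4 mice than any of the other members, with 3.32 times as much in the highest as in the lowest mouse, a wider spread than in 95.9% of the genes tested.

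The WT mean of Scd1 was 119 ± 27.2 CPM and the Mef2dα2 Eko mean 68.7 ± 38.6 CPM (SD, n = 2), the largest fold difference of the 10 genes. Its log2 fold change was -0.78 (SE 0.35, 95% interval -1.62 to 0.05, adjusted p = 0.459). Single mice decided this value, which was -1.50 without Eko 1 (adjusted p = 0.0261) and -0.30 without Eko 2 (adjusted p = 0.742). Scd2, the desaturase paralog found in most tissues, had 50.2 and 52.1 CPM in the WT mice and 41.0 and 43.9 CPM in the Mef2dα2 Eko mice, with a log2 fold change of -0.27 (adjusted p = 0.245). Scd1 exceeded Scd2 per kb of exon by 3.07 and 2.13 times in the WT mice and by 2.62 and 1.06 times in the Mef2dα2 Eko mice, so the paralogs were near parity in Eko 2 alone. Scd3 and Scd4 had at most 11 counts in any mouse and were not tested. The expected counts divide reads shared by such near-identical genes with a model, and the split is uncertain to that extent.

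Dgat2, which joins the last fatty acid to diacylglycerol to form triglyceride (chr7:99153658-99182719, minus strand), came closest to passing the test. It had 2484 and 2734 counts in WT 1 and WT 2 and 2220 and 1482 counts in Eko 1 and Eko 2, or 32.7 and 33.8 CPM compared to 25.8 and 20.7 CPM. Both Mef2dα2 Eko mice lay well below both WT mice, and the WT mice were nearly equal, WT 1 at 0.968 times WT 2. The means were 33.3 ± 0.759 and 23.2 ± 3.56 CPM (SD, n = 2). The log2 fold change was -0.52 (SE 0.11, 95% interval -0.77 to -0.26), with an unadjusted p of 0.00216 and an adjusted p of 0.161, so the gene was not called. DESeq2 and edgeR's likelihood ratio test did call Dgat2, with adjusted p-values of 0.00605 and 0.00864. Leaving out each mouse in turn gave log2 fold changes from -0.67 to -0.37, with adjusted p-values of 0.0615 or more.

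Srebf1 and Thrsp stand on the regulatory side. Srebf1, the gene of the transcription factor SREBP-1 that turns on most enzymes of the pathway (chr11:60199089-60222581, minus strand), had 60.8 and 60.9 CPM in the WT mice and 57.0 and 60.5 CPM in the Mef2dα2 Eko mice. Eko 2 was within 0.5 CPM of the WT mice, and the log2 fold change of -0.05 had a 95% interval from -0.21 to 0.11 (adjusted p = 0.821). Rai1 overlaps Srebf1 on the other strand, with 1849 to 2630 counts of its own, and the strand setting of the counting is not stated. Thrsp, which encodes the lipogenesis-associated protein Spot 14 (chr7:97412938-97417730, minus strand), had 12.4 and 9.87 CPM in WT 1 and WT 2 and 11.2 and 9.37 CPM in Eko 1 and Eko 2. The genotypes overlapped, and the log2 fold change was -0.12 (SE 0.14, 95% interval -0.45 to 0.22, adjusted p = 0.800). Leaving out Eko 1 turned the sign of Srebf1, to 0.0042, and leaving out WT 1 or Eko 2 turned that of Thrsp, to 0.058 and 0.0037.

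Across the 10 genes the same mice tended to stand at the ends. WT 1 had the highest level in 6 of 10 and Eko 2 the lowest in 7 of 10, where over all genes tested WT 1 was highest in 28.5% and Eko 2 lowest in 27.7%. Adipocytes also express many of these genes, and 12 adipocyte markers were measured beside them. WT 1 was highest in 10 of the 12 markers and Eko 2 lowest in 11 of 12. The summed level of the 12 was 200 and 119 CPM in the WT mice and 113 and 87.6 CPM in the Mef2dα2 Eko mice, and none of the 12 was at 0 in any mouse. Without Fabp4, which endothelial cells also express, the sums were 113, 50.1, 44.0 and 27.4 CPM.

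Single markers showed a like order. Adipoq, the adipokine adiponectin, had 9.87 and 4.83 CPM in the WT mice and 4.86 and 2.01 CPM in the Mef2dα2 Eko mice. Plin1, the lipid droplet coat protein of adipocytes, had 9.41, 2.94, 3.82 and 1.50 CPM in WT 1, WT 2, Eko 1 and Eko 2, and Cidec, which enlarges their droplets, had 9.95, 4.01, 4.07 and 1.31 CPM. WT 2 and Eko 1 thus lay close together for all of these, between a higher WT 1 and a lower Eko 2, as they did for Scd1 and Fasn. Cfd, the secreted protease adipsin, had 48.5 and 16.9 CPM in the WT mice and 8.61 and 5.72 CPM in the Mef2dα2 Eko mice, with a log2 fold change of -2.18 (adjusted p = 0.162). Retn (resistin), Lipe (hormone-sensitive lipase), Cidea, Adrb3 (the β3-adrenergic receptor) and Slc7a10 also had both Mef2dα2 Eko mice below both WT mice, at log2 values between -2.35 and -0.48. Fabp4 and Trarg1 overlapped between the genotypes, at log2 values of -0.27 and -0.80, and Lep (leptin) was highest in Eko 1, with a log2 value of 0.21.

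In the test, 0 of the 12 adipocyte markers were called by edgeR's quasi-likelihood fit or by DESeq2, and 7 had an unadjusted p below 0.05, where 11.6% of all genes did. Without WT 2, 3 of the 12 were called, where 1.49% of all genes were, and without WT 1, 1 was, where 0.596% of all genes were. Macrophage markers had the same mice at the ends, with WT 1 highest and Eko 2 lowest for 7 of 7. Their summed levels were 39.1 and 31.5 CPM in WT and 27.7 and 19.9 CPM in Mef2dα2 Eko mice. Of the 7, 0 were called by edgeR's quasi-likelihood fit, and the genotypes overlapped for 2. The part of adipocytes or macrophages in the differences of the lipogenesis genes was not tested. For Dgat2 the mice ran from WT 2 over WT 1 and Eko 1 down to Eko 2, with WT 1 at 0.968 times WT 2. Of the 12 adipocyte markers only Cidea, at 17 to 55 counts, had this order, with WT 1 at 0.775 times WT 2. WT 1 was the highest mouse for 10 of the 12. The median adipocyte marker was 2.06 times as high in WT 1 as in WT 2. Muscle fibre markers were present at high levels in all mice, with sums between 138200 and 146870 CPM.

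**Figure D3:**
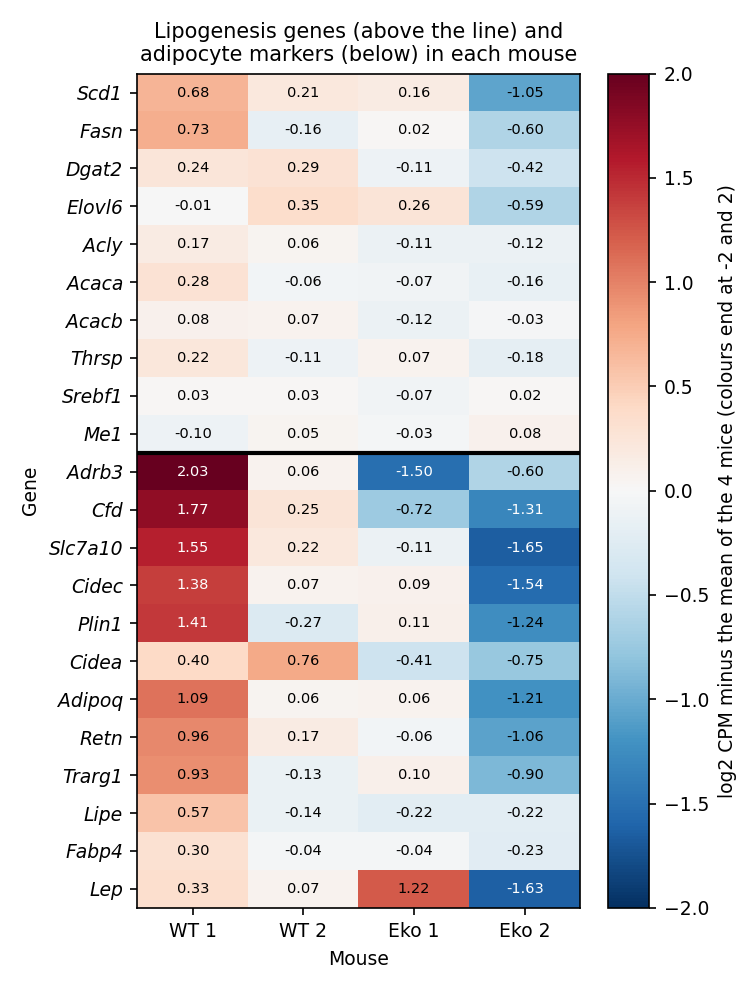
Log2 CPM of each gene minus its mean over the 4 mice (cell colour and printed value), for the 10 lipogenesis genes above the line and 12 adipocyte markers below it, with 1 column per mouse. WT 1 is highest for 6 of 10 and 10 of 12 genes and Eko 2 lowest for 7 of 10 and 11 of 12, while Me1, Srebf1 and Acacb hardly vary.

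Likeness was measured as the distance between log2 levels centred over the 4 mice, among 12124 genes with a mean of at least 1 CPM, and was taken to Scd1 because it had the widest range. The nearest of these genes were Gm28557 at a distance of 0.303 and Pld4, an endolysosomal nuclease of myeloid cells, at 0.335. Csrp3, the muscle LIM protein, followed at 0.340, and then B230303O12Rik and A530016L24Rik at 0.355 and 0.358. The 12 adipocyte markers, some of them below 1 CPM and so outside the ranking, lay at all distances. Retn, with a mean of 0.856 CPM, was at 0.346 with 3 of the ranked genes closer, Trarg1 at 0.446 with 10 closer and Adipoq at 0.467 with 13 closer. Cidec, Plin1, Cidea, Fabp4, Lipe and Slc7a10 lay between 0.862 and 1.02, with 255 to 836 closer, and Lep, Cfd and Adrb3 at 1.25, 1.43 and 2.12, with 4664, 9732 and 12071 closer. Fasn was the nearest of the other lipogenesis genes, at 0.600 with 54 genes closer, followed by Dgat2 at 0.818 with 192 closer. Me1 lay farthest among them, at 1.40 with 9139 genes closer. With only 4 mice these distances describe the libraries and were not tested.

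The genes around the pathway were taken from 7 lists with 106 genes, of which 96 were tested. In edgeR's quasi-likelihood fit 0 of 96 were called, the smallest adjusted p being 0.111, and 16 had an unadjusted p below 0.05, which is 16.7% compared to 11.6% of all genes tested. DESeq2 called 4, or 4.17% compared to 1.97%. Fits that left out single mice, which leave 1 mouse in a group, are described further below. Both Mef2dα2 Eko mice were lower for 38 of the 96, or 39.6% compared to 23%, and higher for 12, or 12.5% compared to 20.8%. The median log2 fold change was -0.11, compared to -0.01 over all genes, and the shares over all genes, 23% and 20.8%, apply to the counts of each list that follow.

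Among the 11 genes of carbon and NADPH supply, both Mef2dα2 Eko mice were lower for 5 and higher for 1, with a median log2 fold change of -0.14. Slc25a1, the mitochondrial citrate carrier that provides the substrate of Acly, had 4.01 and 2.20 CPM in the WT mice and 1.82 and 1.20 CPM in the Mef2dα2 Eko mice, and its log2 fold change was -1.03 (SE 0.33, adjusted p = 0.317). Its order of mice was that of Scd1. Tkt, transketolase of the pentose phosphate pathway, had 10.5, 7.64, 7.25 and 6.47 CPM in WT 1, WT 2, Eko 1 and Eko 2, with a log2 fold change of -0.40 (adjusted p = 0.419).

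The 11 genes that handle malonyl-CoA or activate fatty acids had a median log2 fold change of 0.10, the only list of the 7 with a median above 0, and both Mef2dα2 Eko mice were higher for 6 and lower for 3. Mlycd, malonyl-CoA decarboxylase, which breaks down the product of Acaca and Acacb, was among the lower genes. It had 64.8 and 68.4 CPM in the WT mice and 53.6 and 53.4 CPM in the Mef2dα2 Eko mice, with a log2 fold change of -0.32 (SE 0.07, adjusted p = 0.165). Acsl1, the main long-chain acyl-CoA synthetase of muscle, had 290 and 248 CPM in the WT mice and 205 and 201 CPM in the Mef2dα2 Eko mice, with a log2 fold change of -0.41 (SE 0.09, adjusted p = 0.170). Both genes showed little spread between the Mef2dα2 Eko mice, and Eko 2 was not set apart from Eko 1 as it was for Scd1.

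Of the 17 genes of desaturation and elongation 12 were tested, with a median log2 fold change of -0.16, both Mef2dα2 Eko mice lower for 5 and higher for 0. Besides Scd2, Tecr, the reductase that completes each elongation cycle, had 147 and 115 CPM in the WT mice and 103 and 101 CPM in the Mef2dα2 Eko mice, with a log2 fold change of -0.35 (adjusted p = 0.315). Among 17 lipogenic transcription factors and their regulators the median was -0.09, with both Mef2dα2 Eko mice lower for 4 and higher for 2. Cebpa, a transcription factor of adipocyte differentiation, had 8.01 and 4.76 CPM in the WT mice and 4.41 and 3.96 CPM in the Mef2dα2 Eko mice, at a log2 value of -0.61 (adjusted p = 0.402). Scap, the escort protein of SREBP precursors, had a log2 fold change of -0.17 (adjusted p = 0.483).

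Triglyceride synthesis, the step of Dgat2, had 14 of its 17 genes tested, with both Mef2dα2 Eko mice lower for 8 and higher for 1 and a median log2 fold change of -0.12. Agpat2, which adds the second fatty acid to the glycerol backbone, had 7.13 and 5.24 CPM in the WT mice and 3.38 and 2.82 CPM in the Mef2dα2 Eko mice. The Mef2dα2 Eko values were clearly below both WT values, and the log2 fold change was -0.99 (SE 0.18, 95% interval -1.43 to -0.56, unadjusted p = 0.00109, adjusted p = 0.118). Lpin3, a phosphatidate phosphatase, had a log2 fold change of -0.42 (adjusted p = 0.477). In the list of lipid droplet and triglyceride breakdown genes, 12 of 13 were tested and both Mef2dα2 Eko mice were lower for 6 and higher for 2, with a median of -0.17. Plin5, the droplet protein of oxidative tissues, had 11.0 and 10.5 CPM in the WT mice and 9.06 and 5.20 CPM in the Mef2dα2 Eko mice, at a log2 value of -0.59 (adjusted p = 0.403), and Pnpla3, a droplet lipase under SREBP-1c control, was at -0.40 (adjusted p = 0.527).

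Sterol synthesis genes, which are driven by the related factor SREBP-2, had 19 of 20 genes tested, 0 with an unadjusted p below 0.05, and both Mef2dα2 Eko mice lower for 7 and higher for 0. Their median log2 fold change was -0.13. The list members set farthest apart, Mvd and Cyp51, were at -0.31 (adjusted p = 0.488) and -0.29 (adjusted p = 0.458).

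**Figure D4:**
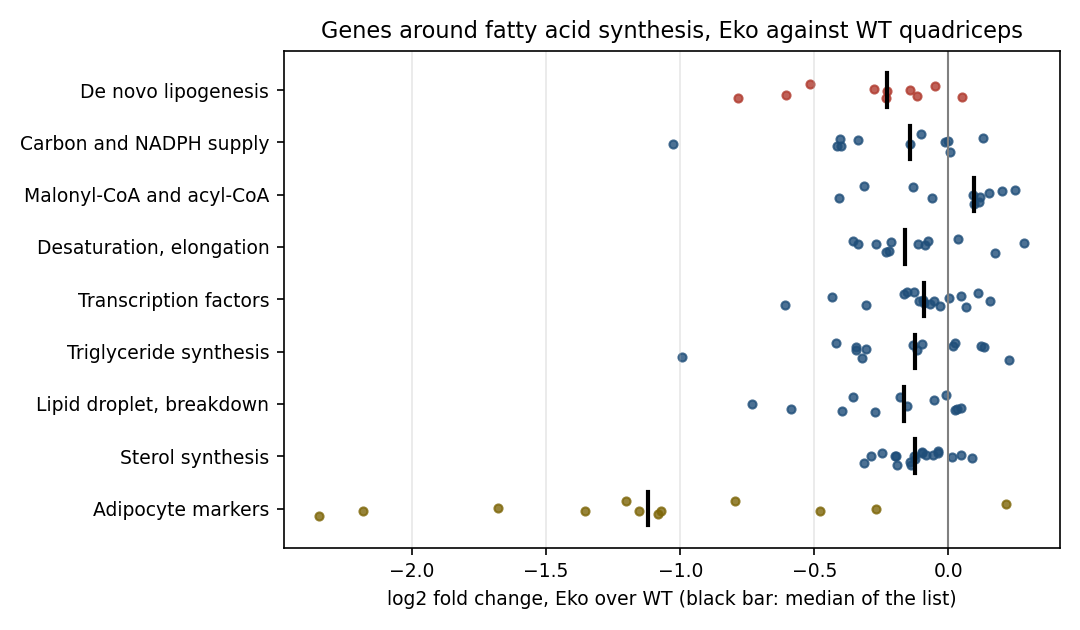
Log2 fold change in Mef2dα2 Eko compared to WT quadriceps (horizontal axis) of each tested gene (points, shifted vertically at random) in the lipogenesis genes, 7 lists around them and the adipocyte markers, with the median of each list as a black bar. The median is -0.23 for the lipogenesis genes, between -0.17 and 0.10 for the 7 lists, and -1.12 for the adipocyte markers.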

How the data were processed

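Expected counts per gene were deposited by the authors, who aligned reads to mm10 and estimated them with RSEM on an Ensembl GRCm38 annotation, without normalization. The submitters' processing notes also name STAR 2.6.1a. All values were whole, so rounding changed none. The 4 libraries were grouped by their labels, which cover 2 mice per genotype. Genotypes were compared in R 4.3.3 with edgeR 4.0.16 (TMM, filterByExpr, quasi-likelihood test, prior count 0.125, Benjamini-Hochberg adjustment over 16120 genes, threshold 0.05), a method tested on simulated data. CPM used TMM-scaled totals, and SEs were derived from the fold change and F statistic. With 2 mice against 2, an exact permutation test cannot go below p = 0.333, so none is given.

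The alternatives used DESeq2 1.42.0, limma 3.58.1 (voom), the likelihood ratio test, other normalizations and filters, a replicate block, and leaving out each mouse. The text names the 10 genes, all adipocyte markers and, per list, the 2 genes with the largest fold change whose genotypes did not overlap, and the 5 genes most like Scd1 (distance on log2(CPM + 0.01)). Scd3, Scd4, Fbxo32, Fasn's likeness rank, the edited gene and Rai1 were named outside this rule. 1 gene that the rule names is not reported here. The genes and lists were chosen with earlier results of these data known. Exon lengths and positions come from GENCODE M21, which differs from the authors' annotation.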

Additional observations from a re-analysis of the deposited data

How the results depend on the processing

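Over the alternatives, 105 of 119 refits of the 10 genes kept direction and side of the threshold, 8 became significant and 6 changed sign. The number of genes called, 67, became 318 with DESeq2, 312 with the likelihood ratio test, 799 with no filter, 23 with at least 1 CPM in 2 libraries (Elovl6 then was not tested), and 28 to 240 without single mice. Lipogenesis genes called, 0, became 1 with DESeq2, 1 with the likelihood ratio test, 3 with no filter, and 0 to 1 without single mice. Pathway genes called, 0, became 4, 3, 12 and 0 to 5, where the highest was without WT 2. Adipocyte markers called, 0, became 1 with the likelihood ratio test, 9 with no filter and 0 to 3 without single mice, the highest again without WT 2. Without a filter 24621 genes were tested, compared to 16120 in the main fit and the likelihood ratio test. In the unfiltered fit, log2 fold changes were -0.78 for Scd1 (adjusted p = 2.43e-17), -0.61 for Fasn (1.71e-08) and -0.52 for Dgat2 (4.11e-06). Dgat2 was at -0.51 (0.00605) with DESeq2 and -0.52 (0.00864) with the likelihood ratio test. Why these calls depend on the tool and filter was not tested.

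Leaving out each mouse gave log2 ranges of -1.50 to -0.30 for Scd1, -0.97 to -0.09 for Fasn, -0.67 to -0.37 for Dgat2, -0.76 to 0.076 for Elovl6, -0.025 to 0.14 for Me1, -0.10 to 0.0042 for Srebf1 and -0.26 to 0.058 for Thrsp. The reversals were Me1 without Eko 2 (-0.0089) and without WT 1 (-0.025), Elovl6 without Eko 2 (0.076), Srebf1 without Eko 1 (0.0042), and Thrsp without Eko 2 (0.0037) and without WT 1 (0.058). An arm then holds 1 mouse, which is assumed to vary like the other genotype.

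The labels number different mice, and the study calls them littermates without saying which share a litter. The mouse numbers of WT 1 and Eko 1 are consecutive, as are those of WT 2 and Eko 2, but no label ties them to a litter. The only pairing check 2 pairs allow gave r = 0.162 over 16120 genes. The replicate numbers were not taken to pair the mice, and these data cannot settle whether they do. With the replicate block, 186 of 16120 genes, 2 of 10 lipogenesis genes, 1 of 96 pathway genes and 4 of 12 adipocyte markers were called. Scd1 was then at -0.89 (adjusted p = 0.0461) and Fasn at -0.58 (0.0297). Depth limits Elovl6 most, with 34 to 74 counts.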

Other observations

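Genes that muscle raises on fasting, a state in which lipogenesis is low, were measured beside the lipogenesis genes. Of 12 such genes 0 were called by edgeR's quasi-likelihood test and 2 had an unadjusted p below 0.05, where 11.6% of all genes did. Both Mef2dα2 Eko mice were lower for 2 and higher for 5, where the shares over all genes were 23% and 20.8%. The median log2 fold change was 0.04. Pdk4, the kinase that shuts pyruvate dehydrogenase on fasting, had 307 and 275 CPM in the WT mice and 167 and 273 CPM in the Mef2dα2 Eko mice, with a log2 fold change of -0.40 (adjusted p = 0.503). Eko 2, the mouse with the lowest Scd1 and Fasn, lay near WT 2 for Pdk4 and Eko 1 below it. Fbxo32, of the same list, was highest in Eko 2. It had 255 and 267 CPM in the WT mice and 319 and 354 CPM in the Mef2dα2 Eko mice. Of the 12 genes 6 had a log2 fold change above 0 and 6 below. The part of feeding state in the lipogenesis genes was not tested. Cdkn1a, the cell cycle inhibitor p21, had 6.25, 5.64, 9.60 and 8.32 CPM in WT 1, WT 2, Eko 1 and Eko 2, at a log2 value of 0.59 (adjusted p = 0.150).

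Among the other cell type markers, 0 were called in any list by edgeR's quasi-likelihood test. Mbp, myelin basic protein, had 8.29 and 9.35 CPM in the WT mice and 10.7 and 12.2 CPM in the Mef2dα2 Eko mice, with a log2 fold change of 0.37 (adjusted p = 0.294). Of 9 muscle fibre markers 5 had a log2 fold change above 0 and 4 below, with a median of 0.0027. Mb, myoglobin, and Myh2, the myosin of type IIa fibres, were the farthest apart of those without overlap. They had log2 fold changes of -0.50 (adjusted p = 0.156) and -0.51 (adjusted p = 0.161). Of 7 fibroblast markers 5 had a log2 fold change below 0 and 2 above, the genotypes overlapped for 3, and the median was -0.17. Col3a1 and Dpt, the farthest apart of those without overlap, were at -0.40 and -0.31 (adjusted p = 0.226 and 0.221). Endothelial markers had a median of -0.05, with Tie1 at -0.19, and blood cell markers a median of -0.0011, with Hbb-bt at -0.18 and Ptprc at -0.17. The macrophage markers farthest apart were Cd68 and C1qb, at -0.77 (adjusted p = 0.419) and -0.71 (adjusted p = 0.199).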
